A study of Homo sapiens with 34 samples.

Results

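The 118 m6Am spans described here carry the name of a noncoding or antisense gene, out of 2116 spans in 3 peak lists of HEK293T cells, a human embryonic kidney line. They were chosen by a rule on the name, with earlier results of these data known. A name had to begin with LINC, LOC, MIR, SNHG, SNORD, SNORA or SCARNA, to contain -AS, or to end in -IT1, -OT1 or -DT. Of these lines, 105 stood among the 1652 of the list for unstressed cells, under 104 different names, 4 stood among the 74 lines of the heat shock list, and 9 stood among the 390 lines of the hypoxia list. A further 2 names that fit the same rule are not analysed here.

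m6Am-seq pulls down capped RNA fragments with an antibody against the m7G cap, exposes a portion to FTO, an enzyme that removes the m6Am methyl group, and pulls down each portion with an m6A antibody. The series holds 34 libraries of 21 kinds, some of which, such as those of PCIF1-KO cells and the CAGE library, belong to other experiments. Unstressed HEK293T cells had 2 libraries each of m7G-IP, FTO (+) m6A-IP, FTO (−) m6A-IP and input. Heat-shocked cells (43 °C for 2 h, then 6 h of recovery), hypoxic cells (1% oxygen for 24 h) and their untreated controls had 2 libraries of each pulldown and 1 input. All of these were wild-type cells of 1 line. The list for unstressed cells holds the m6Am peaks of those cells, while both stress lists hold peaks that the authors called as differing between stressed and untreated cells, and so are not the whole set of spans under stress. The lists give neither strand, height nor replicate, so the depth behind a span is unknown and no value below has a replicate error. A span runs from the outermost edge of a peak to the other and holds any intron between them.

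m6Am is a methylated form of 2′-O-methyladenosine at the base next to the cap, and PCIF1 is the enzyme that writes it. Where the mark lies is therefore also where a transcript begins. Long noncoding RNAs made by RNA polymerase II carry the same cap as messenger RNAs. Many antisense and divergent noncoding RNAs start beside a coding gene, on the other strand, and many microRNAs and box H/ACA small nucleolar RNAs are cut out of the intron of a longer host transcript and have no cap of their own.

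Each span was therefore compared with the annotated starts of Gencode genes on the hg19 genome, on both strands. A gene counted where an annotated start lay within 100 bp of the span's 5′ edge for its strand and the other edge lay in an exon of the same gene. By this rule 40 of the 105 spans, or 38.1%, began at a start of the gene they were named after. Over all 1652 lines the share was 77.2%, and over the other lines analysed it was 80%, or 1236 of 1545. A name without a Gencode match on its chromosome could not count here, and 87 of the 105 names had a match, against 1534 of the 1545 other lines. Among matched names the shares were 46% and 80.6%. Another 40 spans began at a start of a protein-coding gene with a different name and at no start of their own, against 7.26% of all lines. A further 9, or 8.57%, began only at a start of another noncoding gene, against 26 of the 1545 other lines, or 1.68%. The remaining 16, or 15.2%, began at no annotated start, against 13.4% of all lines. In 2 of the 40 named-start spans a coding gene also started at the same edge.

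By kind of name, all 3 SNHG spans began at their own start, as did 23 of the 44 spans with an antisense name, 7 of the 13 LINC spans and 6 of the 23 LOC spans. Among names with a match the counts were 23 of 44, 7 of 12 and 6 of 11, so the lower share of LOC names lay in those without a match. None of the 18 microRNA spans did, 14 of which had a matched name, and 15 of them began at a coding start. No test was made of these shares, because the lines are not replicates of a condition.

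**Figure D1:**
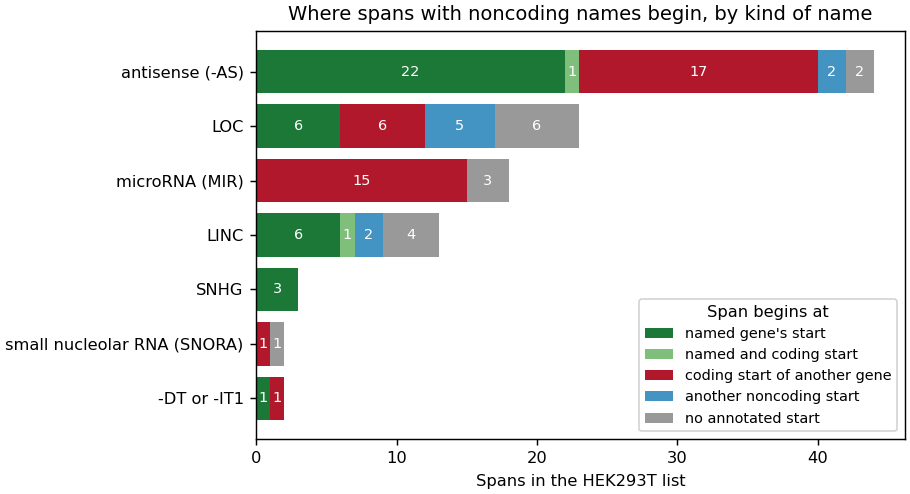
Number of spans in the list for unstressed HEK293T cells (x axis) by kind of name (y axis), with the colour giving what the span begins at. Green segments make up 23 of 44 antisense bars and none of the 18 microRNA bars, of which 15 are red for a coding start.

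The next sequences were taken at annotated starts, which lay within 100 bp of a span's 5′ edge but not always at it. Among the 40 spans at their own start, 12 annotated starts had an A, and 7 of these stood in a BCA context, in which B is C, G or T. Those are shown here with the BCA in capitals, as 30 bases of the GRCh37 genome on the strand of the gene, with the annotated start as the 16th base.
LOC645166 (LSP1P5, chr1:148928292-148928321, plus strand): cagctccgccctcGCAaaggcacagcgcgg
LOC101927765 (COA6-AS1, chr1:234509396-234509425, minus strand): cctctctgcccgcCCAcgtccggcttcctt
RAB30-AS1 (RAB30-DT, chr11:82783093-82783122, plus strand): aagtgggacgcgcCCAgagtgaaggagcaa
OIP5-AS1 (chr15:41576173-41576202, plus strand): ggaacggcccaccGCAgggttggccacctt
WDFY3-AS2 (chr4:85887886-85887915, plus strand): tactgagccggccGCAgaaattgcagccgc
LOC441204 (LINC02981, chr7:26438443-26438472, plus strand): ggtcccgggagccCCAggctgcgcgcgccc
LINC00632 (chrX:139791909-139791938, plus strand): tgcccccactcctTCAgtgcgacagacagc
Of the other starts of this group, 15 had a G, 10 a C and 3 a T. The 3 SNHG genes, whose introns house small nucleolar RNAs, belonged to these, with the start base in capitals.
SNHG8 (chr4:119199898-119199927, plus strand): gccgaaggcctcggcCtttcacattcggga
SNHG17 (chr20:37064006-37064035, minus strand): ctcgcgctctcgtctGtatttccgccggcg
SNHG21 (chr15:83419301-83419330, plus strand): tccgccggaaagagaGtggatttactagga
An A stood at 15 of the 40 coding starts of spans with a noncoding name, 9 of them in BCA, and at 562 of the 1220 coding starts of the other lines that began at their own start, 362 of them in BCA. As shares, BCA stood at 17.5%, 22.5% and 29.7% of these starts. An annotated start is a database entry, and the sequenced 5′ ends were not used, so the base that carried the mark in these cells was not read here.

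The rule admitted only starts within 100 bp of the 5′ edge, so the distances to a counted start could not be larger. Over the 40 spans at their own start, the distance ranged from 0 to 94 bp with a median of 1.5 bp. The median was 9 bp for the other lines at their own start and 8.5 bp for the 40 spans at a coding start of another gene. SNHG21 ran over chr15:83419316-83423407 from its annotated start exactly, and SNHG17, at chr20:37063692-37064020 on the minus strand, also began at distance 0. SNHG8, at chr4:119199917-119200214, began 4 bp inside its start.

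OIP5-AS1, a cytoplasmic lncRNA also known as cyrano, had a span of 2032 bp at chr15:41576188-41578219 that began at its own start. A coding gene of the same strand without a symbol (ENSG00000285920) also had a start 17 bp from that edge, so the span belongs to both by the rule. LINC01089 was the other case, with a span of 1217 bp at chr12:122239636-122240852 whose edge lay on its own start and 18 bp from a start annotated for RHOF, on the same strand. In neither could the list, which has no strand or isoform, tell the lncRNA from the coding transcript.

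LINC00632, the host of the circular RNA CDR1as, began at its own start on chromosome X, and its span of 62357 bp held 7579 exonic bases of the gene. NR2F1-AS1, which lies beside the orphan nuclear receptor gene NR2F1, had a span of 17424 bp that began 50 bp from its own start, with the opposite coding start 2428 bp away. MMP25-AS1, NUTM2B-AS1 and RPARP-AS1 were compact, with spans of 241, 360 and 402 bp that began at distance 0. The shortest of all was FOXD3-AS1, 148 bp at chr1:63789199-63789346, next to the pluripotency and neural crest factor FOXD3, whose start lay 1108 bp downstream of the antisense start. The longest of this group, TMEM161B-AS1, ran over 167504 bp. The spans at their own start that are not described singly, ARHGAP5-AS1, FOXP4-AS1, LCMT1-AS1, LINC00649, LINC00839, LINC00894, LOC101928978, LOC105370333, LOC440434, SCOC-AS1, SEPT7-AS1, TAPT1-AS1 and USP2-AS1, were 237 to 38331 bp long.

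Spans at their own start often lay beside a coding gene that starts on the other strand. A coding start on the opposite strand lay within 1000 bp of the noncoding start in 24 of the 40, or 60%. Such a partner stood within 1000 bp of 234 of the 1220 coding starts of other lines, or 19.2%, but the antisense and divergent names were given to genes for this position. In 20 of the 24 pairs the starts faced away from each other, and in 4 the transcripts overlapped at their heads. The gap had a median of 95.5 bp and ranged from an overlap of 545 bp, written as -545, to 885 bp. Gencode now names 9 of the 40 as divergent transcripts (-DT), such as RAB30-DT, BOLA3-DT and SEPTIN7-DT.

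LOC101927765, now COA6-AS1, started 19 bp from COA6, a factor of cytochrome c oxidase assembly, and its span of 500 bp at chr1:234508840-234509339 lay wholly on the noncoding side. CKMT2-AS1 started 22 bp from ZCCHC9 and TMEM161B-AS1 26 bp from TMEM161B. THUMPD3-AS1 lay head to head not with the gene in its name but with SETD5, 121 bp away. SEPSECS-AS1 lay 122 bp from SEPSECS, and its span, of 36980 bp, had an edge that also lay 9 bp from a start of PI4K2B, on the same strand, whose exons did not hold the other edge.

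The coding partner had a line of its own in the list in 3 of these 24 pairs, and the other lines were not counted in this way. For ZBED5-AS1 and ZBED5, 144 bp apart, the antisense span began at chr11:10879764 on the plus strand and the line named ZBED5 ended at chr11:10879620, which is 144 bp to its left. LINC01534, now ZNF567-DT, and ZNF567, 163 bp apart, showed the same layout, with edges at chr19:37178351 and chr19:37178514. In both pairs the edges that face each other were as far apart as the annotated starts. HOXA10-AS, of the developmental HOXA cluster, began at its own start with a span of 552 bp, at chr7:27208518-27209069, that held a start of HOXA9 545 bp in. That HOXA9 start lay 6 bp from the opposite edge of the span, whose other edge was in no HOXA9 exon. The line named HOXA9 lay elsewhere, at chr7:27205000-27205149.

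**Figure D2:**
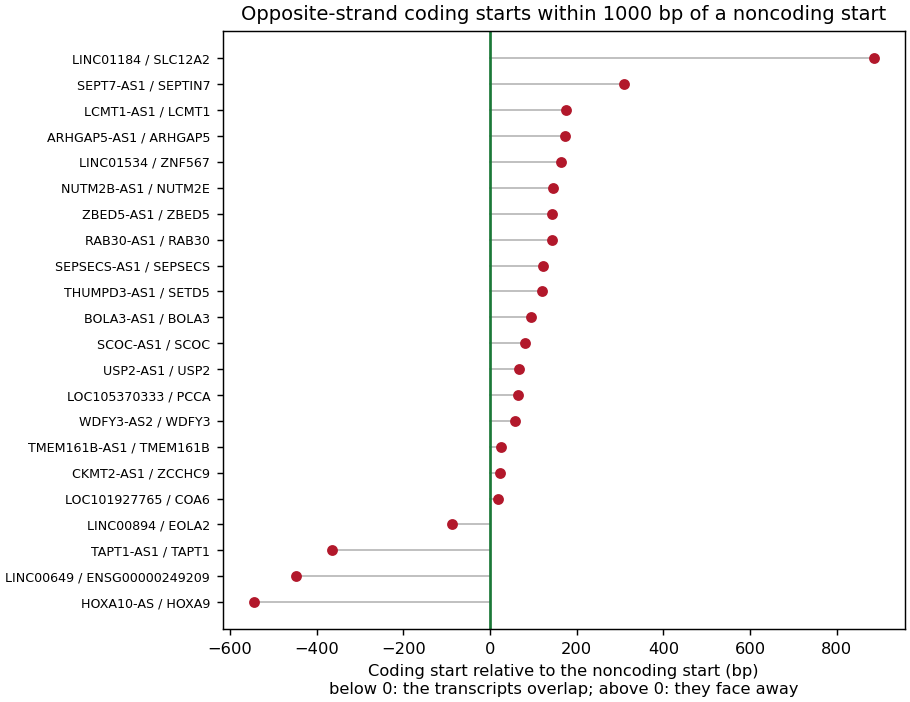
Position of the nearest opposite-strand coding start relative to the noncoding start (x axis, bp; green line at 0) for 22 of the 24 pairs within 1000 bp, noncoding name first on the y axis. Red points right of the line are the 18 pairs drawn that face away from each other, up to 885 bp for LINC01184 and SLC12A2; the 4 points left of it overlap, down to -545 bp for HOXA10-AS and HOXA9.

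The 40 spans that began at a coding start of another gene fell into 3 layouts and a rest. In 19 the named gene overlapped the coding gene on the opposite strand, in 11 it lay inside the coding gene on the same strand, in 1 both started 9 bp apart on opposite strands without overlap, and in 9 the name had no Gencode match on its chromosome.

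Antisense names made up most of the first layout. The median distance between the named and the coding start was 552 bp, with a range from 1 to 547675 bp, and in 12 of 19 it was at most 1000 bp. The start of the named gene also lay within the span in 17 of 19. FGD5-AS1 gave its name to a span of 56300 bp at chr3:14989091-15045390 that began exactly at NR2C2, an orphan nuclear receptor, 46 bp from the nearest antisense start. COX10-AS1, now COX10-DT, and COX10, the heme A farnesyltransferase gene, had starts 1 bp apart on opposite strands, so that the 30 bases printed for each, with the start in capitals, are reverse complements.
COX10 (chr17:13972792-13972821, plus strand): agcccgcccgccggaAgtggcggcccggaa
COX10-DT (chr17:13972792-13972821, minus strand): ttccgggccgccactTccggcgggcgggct
The span, chr17:13972778-13977720, ended in an exon of COX10. THAP7-AS1, TRAF3IP2-AS1 and INTS6L-AS1 were named in the same way for spans at THAP7, at REV3L, the catalytic subunit of DNA polymerase zeta, and at INTS6L, with starts 23, 50 and 15 bp apart. EIF1B-AS1 was the single pair without overlap, with a span of 269 bp at EIF1B, a homologue of a translation initiation factor.

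MEF2C-AS1 named a span of 59670 bp, chr5:88119614-88179283, that began exactly at a start of the transcription factor gene MEF2C. NEXN-AS1 named a span of 27566 bp that began exactly at NEXN, a gene for an actin-binding protein of heart muscle, with the antisense start 1024 bp in. RORA-AS2 stood on the longest of all member spans, 550637 bp from RORA, with 1113 exonic bases of that gene in it. HOXB-AS1 was close to both edges. Its plus-strand start lay 5 bp from the left edge of chr17:46620908-46622393 and a minus-strand start of HOXB2 lay 78 bp from the right edge, and the HOXB2 exons, not those of HOXB-AS1, held the edge opposite to the start.

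EMC3-AS1 was the single name on 2 lines of the list, and the lines overlapped. The line of 24448 bp at chr3:10028337-10052784 began 16 bp from EMC3, a subunit of the membrane protein complex of the endoplasmic reticulum, on the minus strand. The line of 15836 bp at chr3:10028577-10044412 began exactly at a plus-strand lncRNA that Gencode lists without a symbol (ENSG00000291224), 1011 bp from the nearest start of EMC3-AS1 itself.

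**Figure D3:**
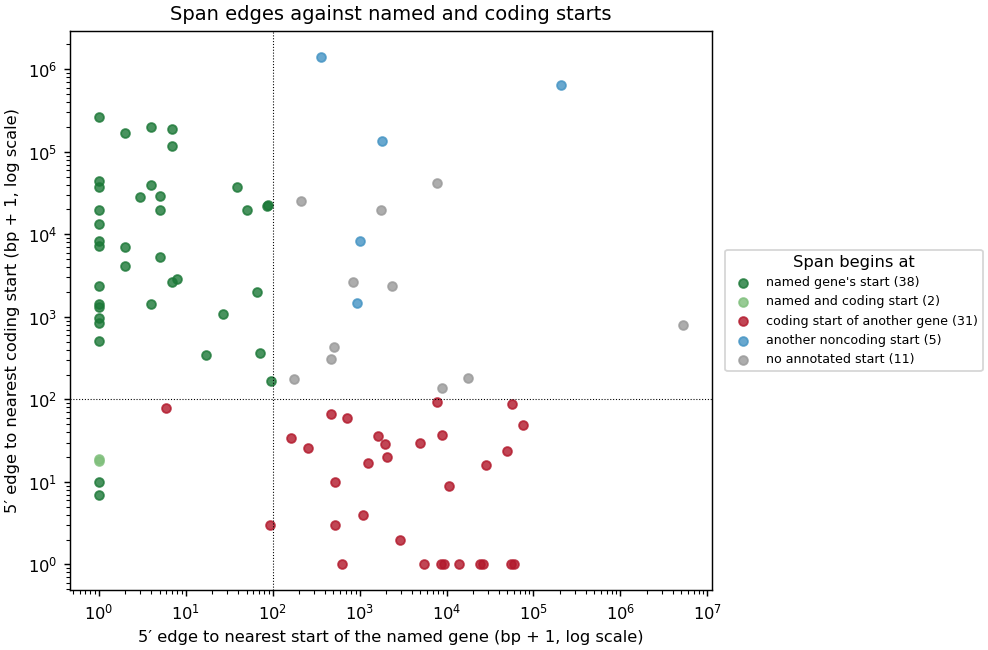
Distance from a span's 5′ edge to the nearest start of the gene it is named after (x axis) and to the nearest coding start (y axis), in bp + 1 on log scales, for the 87 spans of unstressed cells whose name matched Gencode; dotted lines mark 100 bp. Green points lie left of the vertical line and most red points lie below the horizontal line and right of the vertical one, with HOXB-AS1 and MIR3652 below and left of both.

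Many small RNA names marked spans at host genes. Of the 15 microRNA names at a coding start, 11 had a hairpin in Gencode. In 10 of these the hairpin lay inside the coding gene on its strand, and the hairpin of MIR1282 lay on the other strand, across an exon of SERF2. The hairpin was within the span in 9 of the 11. In 7 it was intronic, 2082 to 49260 bp from the 5′ edge. The names and their hosts were MIR5697 in NMNAT1, which makes NAD in the nucleus, MIR554 in TUFT1, MIR3611 in the cullin gene CUL2, MIR618 in LIN7A, MIR640 in GATAD2A, a subunit of the NuRD complex, MIR1301 in the DNA methyltransferase gene DNMT3A, and MIR661 in PLEC, which encodes plectin. MIR3652 was exonic. Its hairpin began 91 bp from the 5′ edge of a span of 1285 bp at HSP90B1, the HSP90 chaperone of the endoplasmic reticulum, so that it lay in the beginning of the host transcript itself.

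In 2 of the 11, of which MIR101-1 is described, the hairpin was not in the span at all. The span named MIR101-1, chr1:65532359-65533429, began exactly at an annotated start of JAK1, a cytokine receptor kinase, and the hairpin lay 9238 bp downstream in an intron. A noncoding gene, RP4-535B20.1, also met the rule for starts at this span. MIR4251, MIR3184, MIR5588 and MIR6837 had no match in the annotation used, and their spans began at PRDM16, NSRP1, EHHADH and DBNL. Those spans were 117069, 61330, 5611 and 12121 bp long. RefSeq places the mature RNAs of MIR3184 on the minus strand, while NSRP1 lies on the plus strand.

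The mature microRNAs named on these spans are far shorter than the spans. They are shown for 6 of them because their names stand for RNAs that are cut from the host transcript, with the seed, bases 2 to 8, in capitals, as RefSeq gives them with GRCh38.p14.
hsa-miR-101-5p: cAGUUAUCacagugcugaugcu
hsa-miR-554: gCUAGUCCugacucagccagu
hsa-miR-618: aAACUCUAcuuguccuucugagu
hsa-miR-640: aUGAUCCAggaaccugccucu
hsa-miR-1301-3p: uUGCAGCUgccugggagugacuuc
hsa-miR-3652: cGGCUGGAggugugagga
None of these 6 shares a seed with another. The table held a mature sequence for 18 of the 20 microRNA names of the 3 lists.

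The capitals in the next group mark the annotated start of the coding gene, not of the small RNA. These 4 genes are shown because each start was an A in BCA. The EHHADH start at the MIR5588 span was also an A in BCA and is not shown. SERF2 lies across from MIR1282, and the other genes shown host the small RNA in brackets.
JAK1 (MIR101-1, chr1:65533415-65533444, minus strand): tccaacccccccgCCAtctatcacatggca
LIN7A (MIR618, chr12:81331699-81331728, minus strand): agagcccggcgatGCAgtcgctctcggata
SERF2 (MIR1282, chr15:44084503-44084532, plus strand): aggggcgggacctGCAacgtccgacagaac
POR (SNORA14A, chr7:75544390-75544419, plus strand): aatggccacgcccCCAcccccgcggccggc
SNORA14A, a box H/ACA RNA that guides pseudouridylation, lay in an intron of POR, the cytochrome P450 reductase, 28680 bp from the 5′ edge of a span of 39078 bp at chr7:75544420-75583497. SNORA7B lay within a span of 2046 bp, chr3:129115910-129117955, that began at no annotated start.

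**Figure D4:**
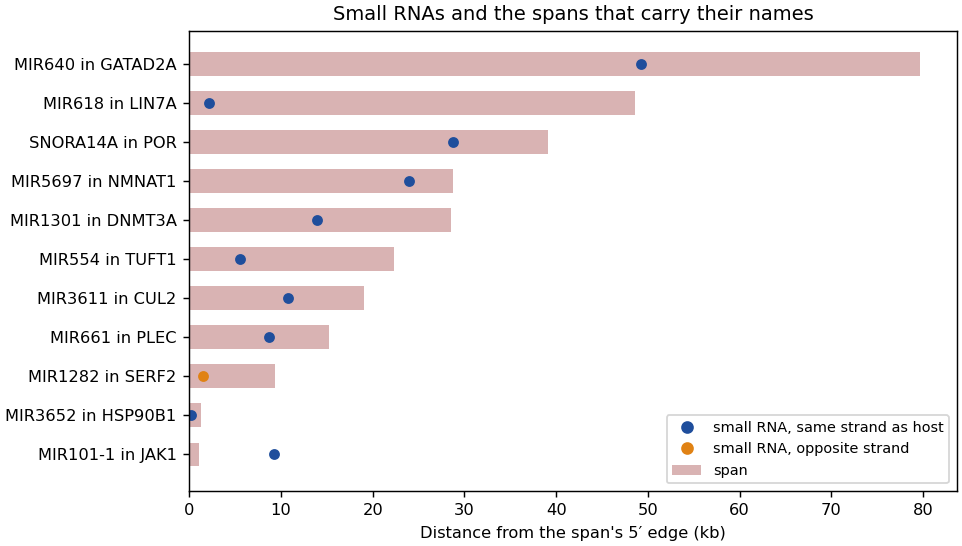
Spans of unstressed cells that carry a small RNA's name and begin at a coding start (bars, length in kb from the 5′ edge on the x axis), with a point at the small RNA's middle. The point lies inside the bar for 10 of the 11 drawn and beyond its end for MIR101-1; 1 further small RNA, not drawn, also lay beyond the end of its span.

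Homer, the program with which the lists were named, gives a span the gene whose start is nearest to the span's centre. Of the 40 spans at a coding start of another gene, 31 had a name with a match. In 26 of the 31 the start of the named gene was nearer to the midpoint of the span than the coding start at its edge was. The named gene was taken at its start closest to the midpoint, the coding gene only at its start by the edge. Other starts of the coding gene were not compared. As the names were given by nearness to the centre, these counts describe the layout and are no test of how the names arose. For MIR1301, for example, the midpoint was 405 bp from the hairpin and 14274 bp from the DNMT3A start, and for MIR640 the distances were 9420 bp and 39817 bp. The counts were 9 of 11 for hosts and 17 of 19 for antisense pairs, and 41 of 69 for other lines at another gene's coding start. The coding start was nearer in 5 cases, among them MIR101-1, LOC101929089, EIF1B-AS1 and H1FX-AS1. H1FX-AS1 named a span of 237 bp at H1-10, a linker histone gene, and LOC101929089, now TTC36-AS1, a span of 1891 bp at TMEM25.

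Span length moved with the kind of start. The median was 20694 bp for the 40 spans at a coding start of another gene and 4076.5 bp for the 38 at their own start alone, while it was 2824 bp for all 105 and 1104 bp for the other lines. The lengths overlapped, from 211 to 550637 bp in the former and from 148 to 167504 bp in the latter. The exonic bases of the gene at the start were much closer, with a median of 584 bp at coding starts and 681 bp at own starts. At least 1 intron was crossed by 34 of the 40 spans at a coding start of another gene and by 70 of the 89 spans with any annotated start, against 782 of 1340 for the other lines.

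**Figure D5:**
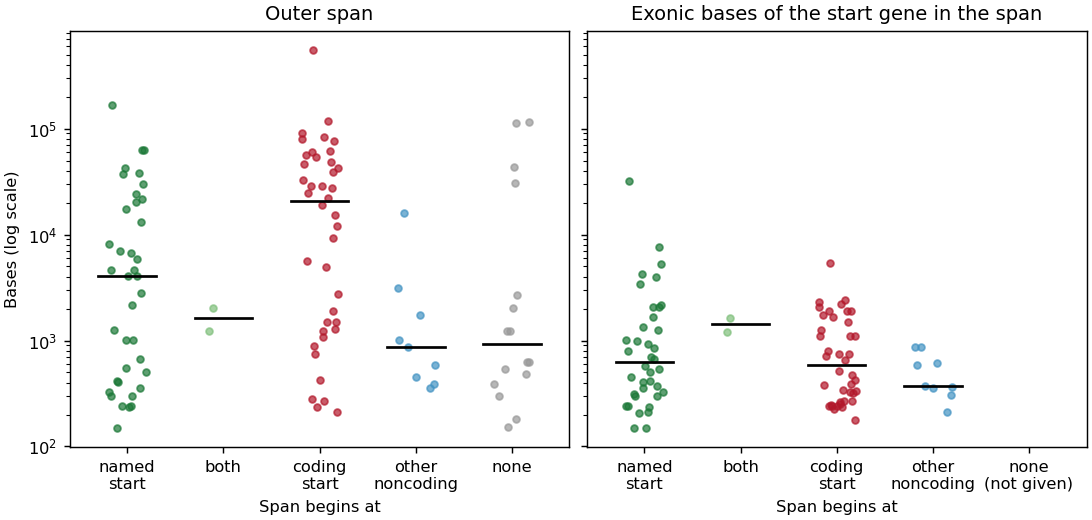
Length of each span of unstressed cells (left, bases on a log scale) and the exonic bases of the gene at its start (right, same scale), by what the span begins at; each point is a span and the black line is the median. The median span is 20694 bp at coding starts and 4076.5 bp at named starts, while the exonic medians differ far less.

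The coding gene had a separate line under its own name for 2 of the 40, SERF2 and NCOA7, a count not made for the other lines. NCOA7-AS1 named a span of 84067 bp that began 87 bp from a start of NCOA7, a nuclear receptor coactivator, while the line named NCOA7 lay upstream at chr6:126102307-126102517. The MIR1282 span, chr15:44084426-44093767, held the line named SERF2, chr15:44084574-44084725. For the rest a search of the list by coding name does not return the span. An example is NFE2L2, the oxidative stress factor NRF2, with an annotated start at the 5′ edge of a span of 54083 bp named LOC100130691. A noncoding gene without a symbol (ENSG00000213963) also met the rule for starts at this span. The name LOC100130691 had no match, so that gene may be the named one under an Ensembl identifier.

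The other LOC and antisense names at coding starts were of the same kinds. LOC100131496 named a span of 46768 bp at ZMYND8, LOC102723604 a span of 90098 bp at the G protein subunit gene GNG2, LOC105377348, now UBE2D3-AS1, a span of 42370 bp at the ubiquitin-conjugating enzyme gene UBE2D3, and LOC100630923 a span of 281 bp at PRKRIP1. PKN2-AS1 named a span of 76133 bp at the protein kinase gene PKN2 and OGFR-AS1 a span of 2775 bp at OGFR, the opioid growth factor receptor gene. BIN3-IT1 and CA3-AS1, both on chromosome 8, named spans of 32576 bp at BIN3 and 1484 bp at the carbonic anhydrase gene CA2.

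Of the 9 spans that began only at another noncoding gene, 4 had a name with no match, so the gene at the start may be the named one under an Ensembl identifier. These were LOC283683, LOC653653, LOC730183 and LOC105274304, with spans of 1002, 358, 583 and 389 bp. LOC101927151, now LINC02987, named a span of 864 bp that began exactly at LINC00662 on the other strand. LINC00174 named 1754 bp at LINC03011, whose start lay 25 bp from the edge, and its own start lay on the other strand 1819 bp from the edge it would begin at. KMT2E-AS1 named 451 bp that began 83 bp from LINC01004. LINC00293, on chromosome 8, named 3127 bp at the pseudogene ASNSP1, and the gene of that name lay 207657 bp away in the annotation.

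The 16 spans with no annotated start were not far from one in 8 cases, in which a coding start lay within 500 bp of an edge. The other lines with no annotated start were not counted in this way. LOC101928068 and MIR3128 missed starts of EFCAB2 and NFE2L2 by 113 and 136 bp, MIR454 missed SKA2 by 179 bp, and MIR3621 lay 311 bp from LRRC26. The hairpins of MIR3128, MIR454 and MIR3621 lay within their spans of 30726, 43309 and 623 bp. TGFB2-AS1 named a span of 151 bp, chr1:218519403-218519553, between its own start on the minus strand, at 218519378, and the growth factor gene TGFB2, with distances from the 5′ edge of 175 bp to its own start and 174 bp to that of TGFB2. LINC02076 began 209 bp inside its own start, LOC101929710 lay 220 bp from ELL2, and LOC554249 lay 175 bp from a coding gene without a symbol. LOC100505921, now GLCCI1-DT, began 501 bp from its own start. LOC100133315 is the name of a gene now called XNDC1N and typed as coding, and its span began 2334 bp from a start of it. MID1IP1-AS1 and LINC01873 began 830 and 7795 bp from a start of their own. LINC00869 lay 5286817 bp from the gene of its name on chromosome 1, and LINC01138 and LOC102723709 had no match.

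In the hypoxia list, all 9 spans with such names overlapped a line of the unstressed list, and 220 of all 390 hypoxia lines, or 56.4%, did. The same name stood in both lists for 8 of them. For LINC00174 and SNORA14A both edges were identical. The hypoxia span of LINC00632 kept its 5′ edge and was shorter, 3944 bp against 62357 bp, and that of LINC01089 kept its 5′ edge too. LOC101929089 also kept its start at TMEM25, with 1025 bp against 1891 bp. LINC01184, now SLC12A2-DT, began near different starts of its own in the 2 lists. The distance was 14 bp from the start at 127418823 in the hypoxia list. In the unstressed list it was 88 bp from the start at 127418573. LOC102723709 differed by 30 bp at its right edge. LOC101927765 lay over chr1:234508821-234509149 and did not reach within 100 bp of the start of COA6-AS1, which was 261 bp away. MIR4466 named a hypoxia span of 181 bp, chr6:157100321-157100501, that lay within the unstressed line named ARID1B, a chromatin remodelling gene; the hairpin lay outside the span. By the rule for starts, 3 of the 9 began at their own start, against 76.7% of all hypoxia lines.

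Read from the unstressed list, 10 of its 105 spans, or 9.52%, were overlapped by a hypoxia span, against 13.5% of all lines. The 2 that overlapped under a different name were MEF2C-AS1 and TRAF3IP2-AS1. The MEF2C-AS1 span shared 2084 bp with the hypoxia line named MEF2C, chr5:88119579-88121697. On the minus strand that line began at a different MEF2C start, near 88121697, while the unstressed span began at 88179283. The shared bases thus lay at the far end of the unstressed span. The TRAF3IP2-AS1 span shared 244 bp with the hypoxia line named TRAF3IP2, chr6:111804675-111895926. That line began at a start of a noncoding gene and at no coding start. A plus-strand start of TRAF3IP2-AS1 lies at 111804662. Heat shock spans overlapped 1 of the 105, or 0.952%, against 2.54% of all lines, and either list 11 of 105, or 10.5%, against 15.3%.

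Of the 4 heat shock spans, 1 overlapped a line of the unstressed list, against 45 of all 74 heat shock lines, or 60.8%. LOC730183, at chr16:30709461-30709810, shared its 5′ edge with the unstressed span and began 4 bp from a lncRNA without a symbol (ENSG00000261840). LOC103908605, now FAM88E, at chr9:44401770-44403115, and LOC403323, now LERFS, at chr9:66553265-66553911, began 4 and 0 bp from their own starts. MIR6895 named 720 bp at chrX:53174164-53174883, where no start was found and its hairpin had no match. Over all heat shock lines 67.6% began at their own start, against 2 of these 4.

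Of 29 well-known noncoding RNAs looked for, 6 were listed. The rule does not take in their names, except for EPB41L4A-AS1, which was not listed. MALAT1, NEAT1, DLEU1, NORAD and FIRRE were in the unstressed list and each began at its own start, MALAT1 with 805 bp and NEAT1 with 211 bp. MALAT1 also stood in the hypoxia list with 360 bp, and ZFAS1 stood there with 6731 bp and no annotated start. Among the other 1545 unstressed lines, 29 were named for a gene that Gencode types as noncoding, pseudogenes included.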

How the data were processed

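Per the submitters' processing notes and the study's methods, reads of HEK293T libraries were trimmed with Trim Galore 0.6.6, aligned to hg19 with HISAT2 and searched for peaks with exomePeak and MACS2. Peaks that overlapped an m7G-IP peak and were over 2-fold lower after FTO were deposited as m6Am spans, named with Homer. The stress lists hold peaks called as differing from untreated cells. The authors' column headed log2 fold change in both stress lists compares stressed with untreated cells, holds no negative value and was not used. Library depth was not given in the lists. Positions were read as 1-based, since 224 span starts equalled an exon's first base as written, and 15 did when moved by 1 base. Names were matched to Gencode release 44, lifted to GRCh37 (66 by symbol, 21 by gene ID or synonym in the RefSeq table, 18 not matched). Sequences came from GRCh37 with pyfaidx 0.9.0.4. Starts within 1000 bp were called near. The class rule was tested on simulated spans. The members and lists were chosen with earlier results of these data known. Named were every stress-list, MIR, SNOR and repeated member, 16 chosen names, and in each class the 8 nearest a start, and others for a whole account. Midpoint distances and the both-strand partner search were added after the spans had been seen. Some spans are not reported singly here. No test was made.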

Additional observations from a re-analysis of the deposited data

How the results depend on the processing

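No paired analysis was possible because the lists hold no value per replicate. With a start allowed within 50 bp of the edge, 28 spans began at no annotated start, and with 500 bp 6 did, and then 5 began at both a named and a coding start. Without a condition on the other edge, 6 began at both, namely LINC01089, OIP5-AS1, MIR3652, HOXB-AS1, SEPSECS-AS1 and HOXA10-AS. With a start anywhere within the span 12 did. With 1 start per gene, 27 began at a coding start, 1 at both and 45 at none. With names matched by current symbol alone, 26 began at their own start and 23 at another noncoding gene. Requiring identical edges left 2 spans shared with a stress list. The other counts stayed within 1.5 times their value under every alternative run. Ratios in the stress lists were not analysed, so a median over spans at their own start was not run. No depth is known for any span.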
